A study of Mus musculus with 24 samples.

Results

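RNA of 6 chemokine receptors, Cx3cr1, Ccr1, Ccr2, Ccr3, Cxcr4 and Ccrl2, was followed in mouse bone marrow-derived macrophages through every condition of the series. The genes were chosen by symbol, and all 6 were found among the 23420 genes of both expression tables. The series holds 24 samples in 12 groups of 2. Marrow cells of male C57BL/6 mice aged 3 months had been grown for 6 days with M-CSF, a growth factor that drives macrophage differentiation. In the antagonist experiment the cells received a DMSO and ethanol vehicle, interleukin-4 (IL-4), GW9662 or IL-4 with GW9662 for 24 h. GW9662 is a compound that blocks the ligand pocket of the nuclear receptor PPARγ. Its dose is not stated in the labels, and IL-4 is labelled as 20 ng per microlitre.

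In the memory experiment, wild-type (WT) cells and cells labelled PpargKO were taken in 4 states. Naive cells (the control groups) had no IL-4, and first-exposed cells had it for 3 h. Washed cells had IL-4 for 24 h and were then kept without it for 24 h in differentiation medium. Restimulated cells were treated like washed cells and then had IL-4 for 3 h. The labels give no pretreatment or washout time for naive and first-exposed cells, and name no mock-pretreated group. Earlier IL-4 and longer culture therefore cannot be told apart where washed or restimulated cells are set against naive or first-exposed cells. The labels do not say which part of Pparg was removed or in which cells, nor do they say that samples within a group had separate donors or dishes; p-values then measure the spread between these samples alone, which may be technical. Pparg reads over the whole gene were as high in PpargKO as in WT libraries (19.9 to 45.5 against 19.0 to 34.8 CPM, the reads of a gene scaled to a fixed library total), so gene totals do not check the knockout. Lyz2, a lysozyme gene of myeloid cells, had authors' means of 21966 to 30727 CPM in the WT groups and 14.5 to 41.8 CPM in the PpargKO groups.

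Chemokine receptors are G protein-coupled receptors that steer leukocytes along gradients of small secreted proteins. Binding opens Gi signalling towards PI3K and the cytoskeleton, and receptor kinases and arrestins then switch the receptor off. Ccr2 lets monocytes leave the marrow towards Ccl2 and Ccl7, Cxcr4 holds cells in the marrow at sources of Cxcl12, and Cx3cr1 binds fractalkine (Cx3cl1) and marks patrolling monocytes and several resident macrophages. Ccr1 is an inflammatory receptor for Ccl3, Ccl5, Ccl6 and Ccl9. Ccr3 is best known from eosinophils, where it reads the eotaxins Ccl11 and Ccl24. Ccrl2 is an atypical receptor that binds chemerin (Rarres2) without the usual G protein signal and can present it to the chemerin receptor Cmklr1. IL-4 is the cytokine that turns macrophages to the alternative, tissue-repair state.

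Of the 6 members, 5 lie on mouse chromosome 9 and Cxcr4 on chromosome 1. In mm10 with GENCODE M21 annotation, Ccr1 (chr9:123962124-123968692, minus strand), Ccr3 (chr9:124021972-124031689, plus) and Ccr2 (chr9:124101950-124113557, plus) stand in 1 cluster. Cx3cr1 (chr9:119901616-120069879, minus) and Ccrl2 (chr9:111054486-111057519, minus) lie outside it, and Cxcr4 is at chr1:128588199-128592293 on the minus strand. Exons of Cx3cr1 overlap the annotated spans of the genes Wdr48 and Gm33858 on the other strand. Exons of those genes were not compared with them. The library kit does not mark strand, and whether reads there could come from those genes was not tested. None of the 50-base words sampled from the members other than Ccr2 occurred in another gene, and 2.29% of those from Ccr2 did.

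Upstream of the start site, Cxcr4 held more CG pairs than the other members. The 250 bases upstream of the RefSeq start (GRCm38.p6) are shown for Cxcr4 and for Ccr1, with CG pairs and TATAAA matches in capitals. The Cxcr4 window is chr1:128592300-128592549 and the Ccr1 window chr9:123968693-123968942, both on the minus strand:
Cxcr4: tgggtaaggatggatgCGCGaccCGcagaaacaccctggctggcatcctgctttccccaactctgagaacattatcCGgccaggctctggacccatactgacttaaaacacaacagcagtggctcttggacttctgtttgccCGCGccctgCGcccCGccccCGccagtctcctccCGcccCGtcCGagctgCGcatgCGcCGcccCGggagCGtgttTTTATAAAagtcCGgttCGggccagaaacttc
Ccr1: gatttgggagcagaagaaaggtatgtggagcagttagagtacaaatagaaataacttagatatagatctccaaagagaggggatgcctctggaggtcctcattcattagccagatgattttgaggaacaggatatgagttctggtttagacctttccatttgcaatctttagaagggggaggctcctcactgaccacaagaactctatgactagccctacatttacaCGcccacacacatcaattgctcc
Cxcr4 had 19 CG pairs and 61.2% G and C, against 1 pair and 43.6% in Ccr1, and a median of 6 pairs and 52.4% over 32851 promoters. The other members had 0 to 7 pairs. Cxcr4 alone among them held TATAAA, 30 bases before the start on its own strand, with an overlapping match on the other strand; 12.4% of all promoters hold it on either strand. Searched on both strands, the STAT6 pattern (TTC and GAA with 4 bases of any kind between them), the general STAT pattern TTCNNNGAA, the PU.1 pattern GAGGAAGT and AGGTCA (a nuclear receptor half-site) matched in no member's window, against 5.85%, 7.02%, 2.44% and 14.0% of all promoters. These are letter matches in short windows and describe no binding.

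Each group has 1 deposited mean, and its read steps were used to recover both libraries. Pairs of values below give the deeper and then the shallower library. All 72 member values had 1 solution. "Rose" and "fell" are kept for members with a Benjamini-Hochberg adjusted p under 0.05 in limma, fitted over all genes of a table, and a log2 ratio is the fitted difference of log2(CPM + 1), with its standard error (SE). Adding 1 understates changes of low genes. Reads in genes numbered 15980291 to 27612705 per antagonist library and 5449087 to 16681506 per memory library, so a count of 3 reads equals 0.105 to 0.181 and 0.183 to 0.526 CPM (counting error only).

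Several libraries stood apart. The deeper restimulated WT library held 1164 CPM and the shallower 41.6 CPM of summed fibroblast and stroma markers, against 0.139 to 11.1 CPM in the other memory libraries, with Col1a1 at 492 and 16.9 CPM. This group had a fitted weight of 0.0822, and the 24 h IL-4 group 0.212, against 0.857 to 2.65 elsewhere. Libraries also fell into 2 kinds by their reads on genes that share sequence with other genes. All 8 PpargKO libraries and the shallower washed WT library held fewer such reads than the other 7 WT memory libraries. In the antagonist experiment both GW9662 libraries held fewer, and each other group had 1 library of each kind. Genotype and counting kind therefore cannot be told apart outside the washed WT group. Macrophage markers were high in every group, at summed means between 12152 and 43133 CPM over both tables. The sum includes Lyz2, at 30727 CPM in naive WT and 41.8 CPM in naive PpargKO cells, so that gene adds to the range. T, B and NK cell markers each stayed at or under a sum of 0.432 CPM. Neutrophil markers summed to 239 to 509 and 32.9 to 149 CPM, and their part in the members' values was not tested.

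In naive WT macrophages the authors' means were 158 CPM for Cxcr4, 135 for Ccr1, 98.2 for Cx3cr1, 84.8 for Ccr2, 27.5 for Ccr3 and 5.65 for Ccrl2. Per kilobase of annotated exons, the order of levels was Cxcr4 (87.6 CPM per kilobase), Ccr1 (47.5), Cx3cr1 (21.8), Ccr2 (12.5), Ccr3 (8.41) and Ccrl2 (2.17). In vehicle-treated cells of the antagonist experiment Cxcr4 was again highest (120.5), and Ccr2 (22.2), Ccr1 (19.2), Cx3cr1 (14.4), Ccrl2 (5.44) and Ccr3 (2.48) followed. The tables were normalized separately, so no test was made between them.

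After 24 h of IL-4, Cx3cr1, Ccr2 and Cxcr4 fell, and no member rose. Cx3cr1 stood at 65.0 and 64.4 CPM in vehicle and at 1.24 and 2.59 CPM with IL-4. Ccr2 went from 150.4 in both vehicle libraries to 49.2 and 23.4 CPM. Cxcr4 measured 233 and 203 CPM in vehicle and 78.9 and 70.8 CPM with IL-4. The groups did not overlap for any of these genes, as was so for 60% of the tested genes whose libraries could be separated, and the mean of Cx3cr1 was 33.7-fold lower.

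The fitted log2 ratio was -4.53 (SE 0.35, adjusted p = 0.000214) for Cx3cr1, -2.11 (SE 0.33, adjusted p = 0.00427) for Ccr2 and -1.53 (SE 0.17, adjusted p = 0.00115) for Cxcr4. That is 3 of 6 members lower, where 18.1% of 11140 tested genes were called, 9.74% higher and 8.35% lower, and the median log2 ratio was -1.13 over the members and -0.02 over all genes. Ccrl2 (15.6 and 12.7 CPM against 7.50 and 8.69) and Ccr3 (8.96 and 7.24 against 6.95 and 4.34) also had no overlap but missed the threshold, at adjusted p of 0.0891 and 0.387. Ccr1 overlapped, at 59.2 and 49.6 CPM in vehicle and 51.5 and 41.2 CPM with IL-4 (log2 ratio -0.23, 95% interval -0.80 to 0.35). Without the shallower IL-4 library, the Ccr2 ratio was -1.59 and its adjusted p 0.0648. The summed monocyte markers, led by F13a1, moved with Ccr2: 400 and 420 CPM in vehicle against 62.0 and 33.8 CPM with IL-4. In bulk RNA, fewer cells of a type and less RNA per cell cannot be told apart, and the part of monocytes in these values was not tested.

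With GW9662 alone, the libraries of every member overlapped those of the vehicle group; over all separated genes 28.2% did not. For example, Cxcr4 stood at 211 and 214 CPM, Ccr2 at 155 and 132, and Cx3cr1 at 71.5 and 64.0. No member was called by limma (0% of 10938 genes were, and 258 had an unadjusted p under 0.05), and log2 ratios lay between -0.10 and 0.08. The widest 95% interval, that of Cx3cr1, ran from -0.31 to 0.44.

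With GW9662 present, IL-4 lowered 4 members. Cx3cr1 fell from 71.5 and 64.0 to 2.00 and 1.16 CPM (log2 ratio -4.75, SE 0.15, adjusted p = 4.45e-07). Ccr2 went from 155 and 132 to 36.6 and 45.1 CPM (-1.79, SE 0.14, adjusted p = 3.73e-05), and Cxcr4 from 211 and 214 to 80.7 and 72.8 CPM (-1.46, SE 0.08, adjusted p = 4.32e-06). Ccrl2 fell from 14.1 and 14.99 to 7.19 and 6.29 CPM (-1.01, SE 0.11, adjusted p = 0.000191). Here 51.3% of 11130 genes were called, 26.2% higher and 25.1% lower, and the fitted weights of both groups were above that of IL-4 alone. Ccr1 was not called (log2 ratio 0.00, interval -0.25 to 0.25) and Ccr3 stood at -0.29 (adjusted p = 0.136).

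Set directly against IL-4 alone, IL-4 with GW9662 gave no call in any member or other gene (0% of 10867; 1 gene had an unadjusted p under 0.05). The same held for the difference between the IL-4 responses with and without GW9662 (0% of 11232; 13 genes at an unadjusted p under 0.05). For Ccr2 that difference was 0.32 with an interval of -0.52 to 1.16, and for Cx3cr1 -0.22 with -1.11 to 0.66. Differences of about 2-fold in the responses of these genes are thus within the intervals. Cxcr4 had a narrower interval, -0.38 to 0.51. Both counts of genes at an unadjusted p under 0.05 lie far below the 0.05 share that unchanged genes would give. These tests were thus strict, and the lack of calls does not show that GW9662 had no effect.

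**Figure D1:**
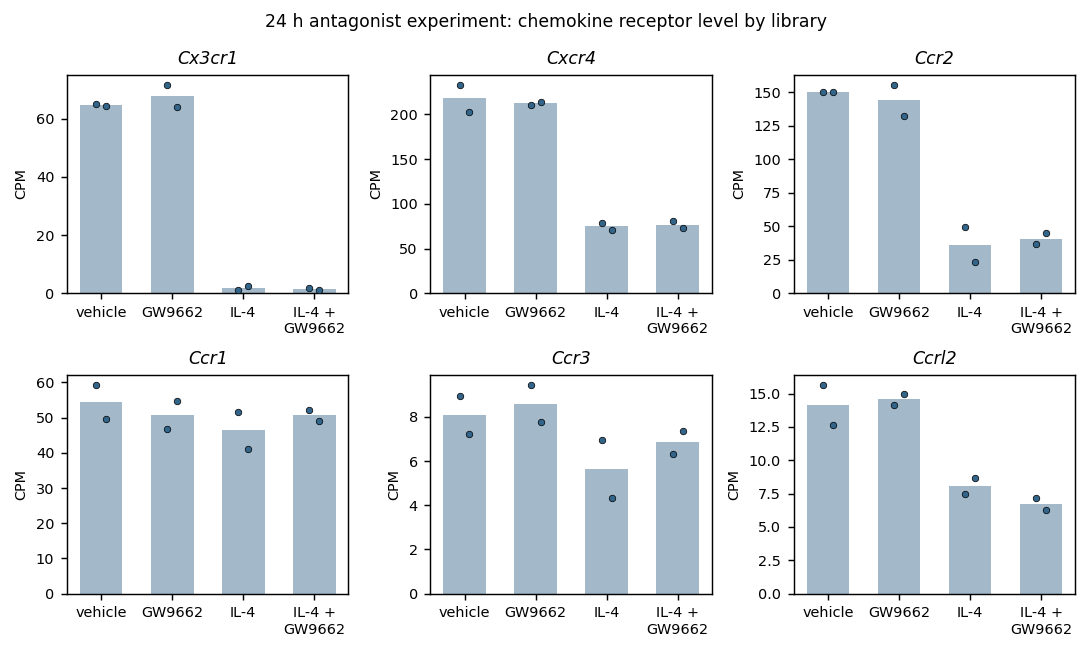
Level of each receptor (CPM, linear axis from 0) in the 4 groups of the antagonist experiment. Bars are the authors' group means and points the deeper (left) and shallower (right) library. Cx3cr1, Cxcr4 and Ccr2 are low in both groups with IL-4, while Ccr1 overlaps across all groups.

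A first exposure of 3 h already lowered 5 of the 6 members in WT cells. Cxcr4 fell from 157 and 160 to 23.5 and 20.7 CPM, and Cx3cr1 from 105.5 and 91.0 to 11.3 and 16.2 CPM. Their means were 7.15-fold and 7.14-fold lower, by far the deepest falls among the members. Ccr2 went from 83.7 and 85.9 to 25.05 and 30.2 CPM, Ccr1 from 124 and 145 to 77.5 and 70.6, and Ccr3 from 31.8 and 23.2 to 17.9 and 16.7. Ccrl2 read 5.11 and 6.18 CPM before and 7.76 and 6.94 CPM after. All 6 members were apart between the groups, as were 74.9% of all separated genes.

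Log2 ratios were -2.79 for Cxcr4 (SE 0.08, adjusted p = 3.3e-13), -2.77 for Cx3cr1 (SE 0.15, adjusted p = 2.45e-10), -1.59 for Ccr2 (SE 0.10, adjusted p = 1.51e-09), -0.85 for Ccr1 (SE 0.08, adjusted p = 1.66e-07) and -0.62 for Ccr3 (SE 0.18, adjusted p = 0.00859). At 3 h, 25.2% of 11345 genes were called lower and 50% changed, so the count of members is read against a wide response. The median log2 ratio was -1.22 over the members and -0.01 over all genes. Ccrl2 was at 0.33 (adjusted p = 0.0882). Without the deeper naive WT library, Ccr3 was at -0.40 with an adjusted p of 0.156, and without group weights its adjusted p was 0.0599. The summed monocyte markers moved with Ccr2, from 238 and 243 to 143 and 133 CPM, and their part in it was not tested.

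In PpargKO cells the same 5 members fell on first exposure (43.6% of 11208 genes were called, 21.2% higher and 22.4% lower). Cxcr4 went from 179 and 182 to 24.6 and 27.0 CPM (log2 ratio -2.76, SE 0.09, adjusted p = 7.85e-13) and Cx3cr1 from 92.9 and 93.8 to 14.3 and 13.9 CPM (-2.65, SE 0.15, adjusted p = 8.28e-10). Ccr2 fell from 53.8 and 61.4 to 17.2 and 17.0 CPM (-1.69), Ccr1 from 112 and 114 to 52.1 and 53.9 (-1.08), and Ccr3 from 19.2 and 23.8 to 9.30 and 14.6 (-0.82, adjusted p = 0.00202). All 6 members were apart, as were 71.1% of all separated genes. Monocyte markers summed to 224 and 215 CPM before and 144 and 160 CPM after. Without the deeper first-exposed PpargKO library, Ccr3 was at -0.52 (adjusted p = 0.0767).

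The difference of the first responses between genotypes passed for no member (4 of 11494 genes did, 0.0348%). It was 0.03 for Cxcr4 (interval -0.23 to 0.29), 0.12 for Cx3cr1 (-0.33 to 0.57) and -0.10 for Ccr2 (-0.40 to 0.20). Ccrl2, at 11.3 and 9.09 CPM in naive and 8.75 and 7.37 CPM in first-exposed PpargKO cells, differed most from its WT response (-0.64, interval -1.11 to -0.16), with an unadjusted p of 0.0123 and an adjusted p of 0.318.

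**Figure D2:**
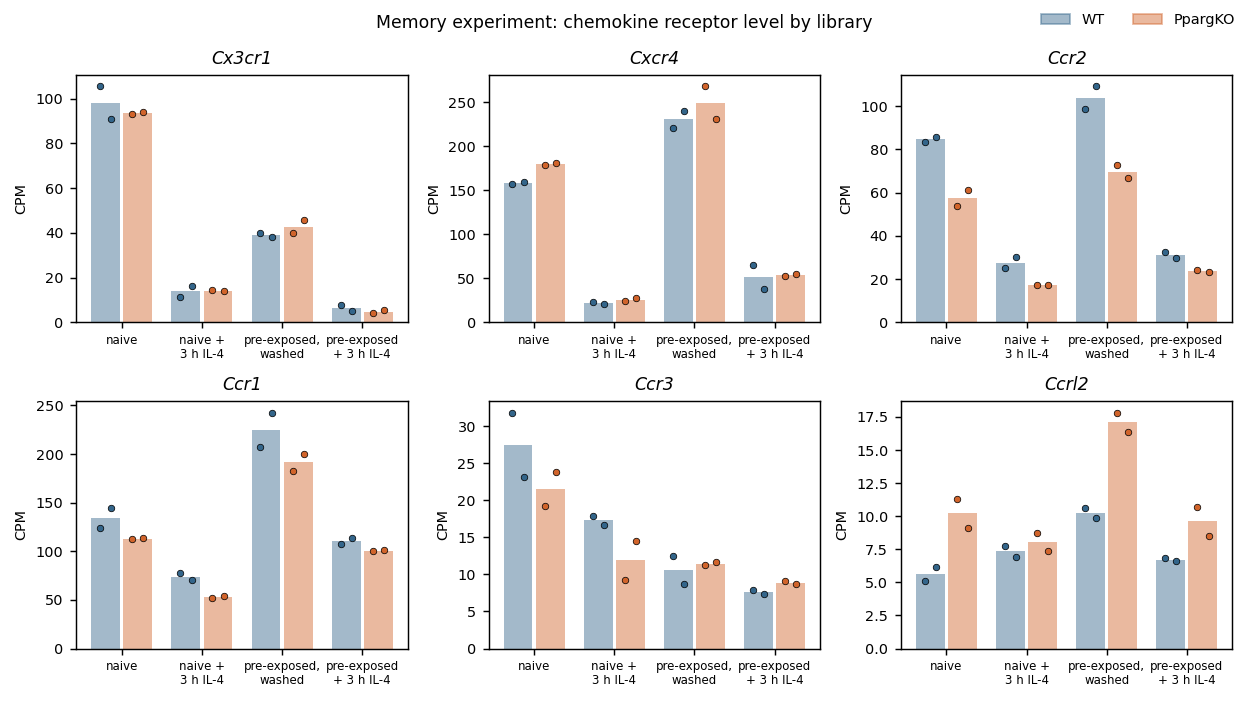
Level of each receptor (CPM, linear axis from 0) in the 4 states of the memory experiment, WT in blue and PpargKO in orange. Bars are the authors' group means and points the deeper (left) and shallower (right) library. Every 3 h exposure lowers Cx3cr1, Cxcr4, Ccr2 and Ccr1 in both genotypes; after washout Ccr1 and Cxcr4 stand above their naive level and Cx3cr1 below it.

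The members parted ways after washout. A day after IL-4 was removed, Ccr1, Cxcr4 and Ccrl2 had risen above the naive level in WT cells, while Cx3cr1 and Ccr3 were below it and Ccr2 was not called. Ccr1 read 207 and 243 CPM against 124 and 145, the highest level of this gene in the table. Cxcr4 read 221 and 241 CPM against 157 and 160, and Ccrl2 10.6 and 9.87 against 5.11 and 6.18. Cx3cr1 was at 40.0 and 38.1 CPM, still 2.52-fold under its naive mean, and Ccr3 at 12.4 and 8.74 CPM, 2.60-fold under it. The members' libraries did not overlap between washed and naive WT cells, and neither did those of 56.2% of all separated genes. The part of time in culture in these differences was not tested.

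The log2 ratios were 0.73 for Ccr1 (SE 0.10, adjusted p = 8.36e-05), 0.54 for Cxcr4 (SE 0.11, adjusted p = 0.00225) and 0.76 for Ccrl2 (SE 0.19, adjusted p = 0.0137), against -1.31 for Cx3cr1 (SE 0.18, adjusted p = 0.000144) and -1.30 for Ccr3 (SE 0.22, adjusted p = 0.000806). Of 11369 genes tested 15.1% were called; 7.7% were called higher and 7.42% lower. Ccr2 stood at 98.8 and 109 CPM (log2 ratio 0.29, adjusted p = 0.127). The Ccrl2 call was lost without the deeper naive WT library (0.65, adjusted p = 0.104) and without the deeper or the shallower washed WT library (adjusted p = 0.0602 and 0.0501). The rise of Cxcr4 was not called without group weights (adjusted p = 0.129) or in limma-voom (0.0882).

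Washed PpargKO cells gave the same 5 calls in the same directions (19.8% of 11230 genes were called, 9.51% higher and 10.3% lower). Ccr1 rose from 112 and 114 to 182 and 200 CPM (log2 ratio 0.75, SE 0.08, adjusted p = 7.75e-06), Cxcr4 from 179 and 182 to 268 and 231 CPM (0.46, SE 0.09, adjusted p = 0.00142) and Ccrl2 from 11.3 and 9.09 to 17.8 and 16.3 CPM (0.70, SE 0.16, adjusted p = 0.00615). Cx3cr1 fell from 92.9 and 93.8 to 40.0 and 45.6 CPM (-1.11, SE 0.15) and Ccr3 from 19.2 and 23.8 to 11.2 and 11.7 CPM (-0.84, SE 0.19). Ccr2, at 72.9 and 66.6 CPM, was above both naive libraries but not called (0.27, adjusted p = 0.074).

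Without group weights or in limma-voom, Cxcr4 and Ccr3 were not called in washed PpargKO cells (adjusted p of 0.225 and 0.165 for Cxcr4, 0.0535 and 0.0605 for Ccr3). Ccrl2 was not called without the shallower naive (0.55, adjusted p = 0.0515) or the deeper washed PpargKO library (0.64, adjusted p = 0.0641). Ccr2 was called higher without the shallower naive PpargKO library (0.37, adjusted p = 0.0447). The difference of the washout responses between genotypes was called for no member (1 of 11507 genes, 0.00869%), with intervals of -0.25 to 0.29 for Ccr1 and -0.16 to 1.07 for Ccr3.

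Restimulation for 3 h lowered Cx3cr1, Cxcr4, Ccr2 and Ccr1 again. In PpargKO cells Cx3cr1 went from 40.0 and 45.6 to 4.19 and 5.32 CPM (log2 ratio -2.93, SE 0.16, adjusted p = 6.38e-10), its lowest group mean in the memory table. Cxcr4 fell from 268 and 231 to 52.1 and 55.3 CPM (-2.19, SE 0.09), Ccr2 from 72.9 and 66.6 to 24.3 and 23.1 (-1.52, SE 0.11), Ccr1 from 182 and 200 to 99.97 and 100.8 (-0.92, SE 0.08) and Ccrl2 from 17.8 and 16.3 to 10.7 and 8.51 (-0.78, SE 0.17, adjusted p = 0.0017). These are 5 of 6 members lower, where 35.6% of 11282 genes were called, 19.2% higher and 16.4% lower. Ccr3 was at 9.08 and 8.65 CPM (-0.34, adjusted p = 0.194).

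In WT cells the restimulated libraries differed from each other more than those of any other memory group by the fitted weights. Against washed cells Cxcr4 (64.5 and 38.0 CPM), Cx3cr1 (7.49 and 4.93), Ccr2 (32.6 and 29.6) and Ccr1 (108 and 114) fell, with log2 ratios of -2.20 (SE 0.28), -2.50 (SE 0.49), -1.71 (SE 0.33) and -1.01 (SE 0.26, adjusted p = 0.0336). That is 4 of 6 members lower, where 5.41% of 11958 genes were called, 2.98% higher and 2.43% lower. The members' libraries were apart from those of washed cells, as were 58.1% of all separated genes. Monocyte markers moved with Ccr2 here too, from 282 and 330 to 162 and 129 CPM, and in PpargKO cells from 184 and 155 to 112 and 124 CPM; their part was not tested. Without the deeper restimulated library, which held most of the fibroblast transcripts, the ratios were -2.75 for Cx3cr1, -1.78 for Ccr2 and -0.97 for Ccr1. Without the shallower they were -2.24, -1.64 and -1.05. In each of these cases Cxcr4 alone kept its call; Ccr1 was also not called with no filter (adjusted p = 0.0698), and the lone library kept its group's weight and is assumed to vary like the others. The part of fibroblast RNA in the WT values was not tested; among the members' ligands, Cxcl12 (80.5 and 4.06 CPM, at most 1.23 in the other memory libraries) and Cx3cl1 (8.70 and 0.877 CPM) moved with it.

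**Figure D3:**
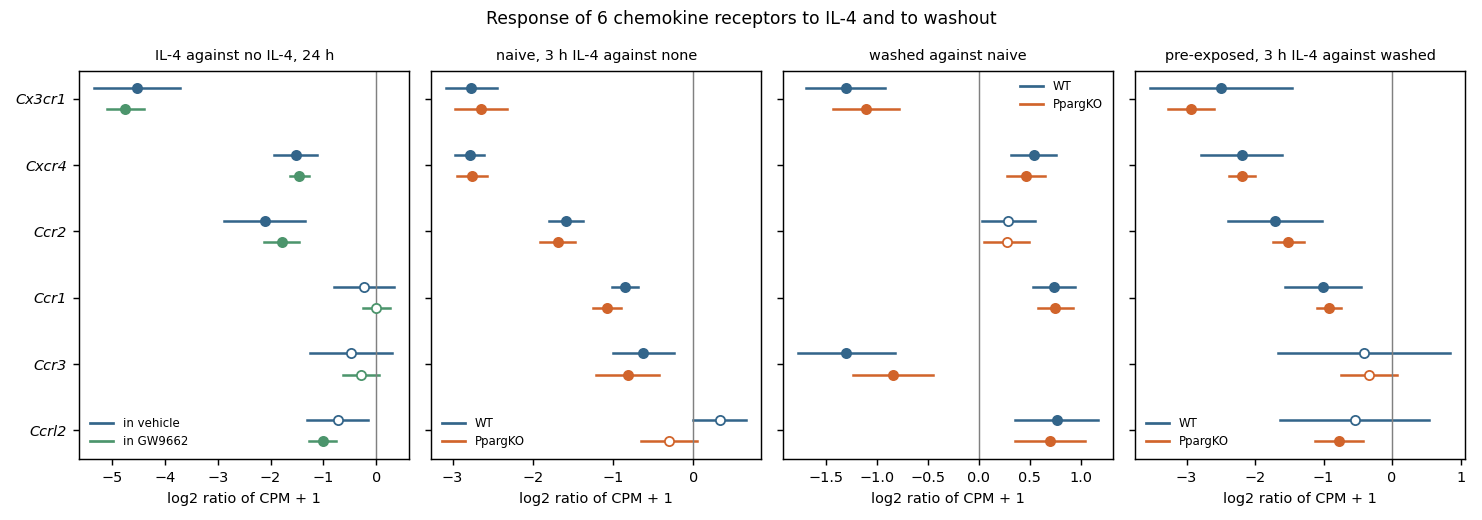
Fitted log2 ratios of CPM + 1 with 95% intervals for each receptor under IL-4 for 24 h, first exposure, washout and restimulation; each panel has its own x axis. Filled points have an adjusted p under 0.05. Cx3cr1 stays below 0 in all panels, while Ccr1, Cxcr4 and Ccrl2 lie above 0 after washout.

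Restimulated and first-exposed cells, both taken at 3 h of IL-4, differed in PpargKO cells in 4 members. Cxcr4 read 52.1 and 55.3 against 24.6 and 27.0 CPM (log2 ratio 1.03, SE 0.09, adjusted p = 1.03e-06), Ccr1 99.97 and 100.8 against 52.1 and 53.9 (0.91, SE 0.08, adjusted p = 1.69e-06) and Ccr2 24.3 and 23.1 against 17.2 and 17.0 (0.45, SE 0.11, adjusted p = 0.00662). Cx3cr1 was lower, at 4.19 and 5.32 against 14.3 and 13.9 CPM (-1.40, SE 0.16, adjusted p = 1.23e-05). Pre-exposed cells thus held more Cxcr4, Ccr1 and Ccr2 RNA and less Cx3cr1 RNA at this time (21.9% of 11190 genes were called, 12.4% higher and 9.53% lower). Ccr2 was not called in limma-voom (adjusted p = 0.104).

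The WT values lay in the same order for Cxcr4 (64.5 and 38.0 against 23.5 and 20.7 CPM), Ccr1 (108 and 114 against 77.5 and 70.6) and Cx3cr1 (7.49 and 4.93 against 11.3 and 16.2), without overlap (40.7% of all separated genes had none), but none was called. Among all genes 0.32% of 11880 were called and 1068 had an unadjusted p under 0.05. Log2 ratios were 1.13 for Cxcr4 (adjusted p = 0.0793), 0.58 for Ccr1 (0.481), -1.04 for Cx3cr1 (0.525) and -1.08 for Ccr3 (0.676). Without group weights and in limma-voom these same 4 members were called. Cxcr4 was also called without the shallower restimulated library (1.5, adjusted p = 0.0496) and not without the deeper one.

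The fall itself was smaller on restimulation than on first exposure for Cxcr4 in PpargKO cells. The difference of the log2 ratios was 0.57 (SE 0.13, interval 0.30 to 0.84, adjusted p = 0.0384), where 0.901% of 11435 genes were called higher. The call was lost without any 1 of 7 of the 8 libraries, all but the deeper washed one (differences of 0.46 to 0.67). In WT cells the same difference was 0.59 (interval -0.03 to 1.21, adjusted p = 0.832), with 0.00828% of 12074 genes called. For the other members it was called in neither genotype; in PpargKO cells it was 0.16 for Ccr1 (interval -0.09 to 0.41), 0.17 for Ccr2 (-0.14 to 0.49) and -0.29 for Cx3cr1 (-0.76 to 0.18). Between genotypes, the restimulation response differed in no member or other gene (0% of 12072; 1171 at an unadjusted p under 0.05).

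PpargKO cells held less Ccr2 and Ccr1 and more Ccrl2 RNA than WT cells when naive. Ccr2 stood at 53.8 and 61.4 CPM against 83.7 and 85.9 (log2 ratio -0.55, SE 0.10, adjusted p = 0.000826), Ccr1 at 112 and 114 against 124 and 145 (-0.25, SE 0.08, adjusted p = 0.0357) and Ccrl2 at 11.3 and 9.09 against 5.11 and 6.18 (0.75, SE 0.15, adjusted p = 0.00274). All 3 were apart, as were 58.5% of all separated genes, and 18.4% of 11280 genes were called, 7.78% higher and 10.6% lower. The remaining intervals were -0.38 to 0.24 for Cx3cr1, 0.01 to 0.36 for Cxcr4 and -0.71 to 0.04 for Ccr3.

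After 3 h of IL-4, Ccr2 (17.2 and 17.0 against 25.05 and 30.2 CPM; log2 ratio -0.65, adjusted p = 0.000542) and Ccr1 (52.1 and 53.9 against 77.5 and 70.6; -0.47, adjusted p = 0.00107) were lower in PpargKO cells, with 8.96% of 11245 genes called, 1.49% higher and 7.48% lower. Washed cells kept the call for Ccr2 alone (72.9 and 66.6 against 98.8 and 109; -0.57, adjusted p = 0.0285; 3.95% of 11347 genes were called, 1.65% higher and 2.3% lower). Ccrl2 was at 17.8 and 16.3 against 10.6 and 9.87 CPM there (0.68, adjusted p = 0.0626). Monocyte markers summed to 184 and 155 CPM in washed PpargKO and to 282 and 330 CPM in washed WT cells. Naive cells had sums of 224 and 215 against 238 and 243 CPM. In first-exposed cells the sum was not lower in PpargKO, at 144 and 160 against 143 and 133 CPM, while Ccr2 was. From naive to washed PpargKO cells the sum was lower, while Ccr2 was higher but not called. The part of monocytes in Ccr2 was not tested. Restimulated cells gave no member (0.0252% of 11894 genes, and 1068 at an unadjusted p under 0.05). Ccr2, the gene lower in 3 of the 4 states, had a ratio of -0.37 in the fourth (interval -1.05 to 0.30).

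Counting kind went with genotype in these comparisons. The washed WT group has 1 library of each kind. There Ccr2 read 98.8 CPM in the library with more reads on such genes and 109 CPM in the one with fewer. Washed PpargKO cells read 72.9 and 66.6 CPM. A single library of each kind gives no spread within a kind. With kind as a term of the fit, no member was called in naive (Ccr2 -0.70, adjusted p = 0.37) or first-exposed cells (-0.80, adjusted p = 0.494). The Ccr1 call in naive cells was lost without any 1 of the 4 libraries except the deeper WT (ratios of -0.14 to -0.26 in the other 3), and that of Ccrl2 without the deeper naive WT library (0.63, adjusted p = 0.0603). The Ccr2 call in washed cells was lost without the shallower WT (-0.50, adjusted p = 0.0848) or the shallower PpargKO library (-0.51, adjusted p = 0.27). In first-exposed cells, Ccr3 was called lower without the shallower PpargKO library (-0.83, adjusted p = 0.0384).

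**Figure D4:**
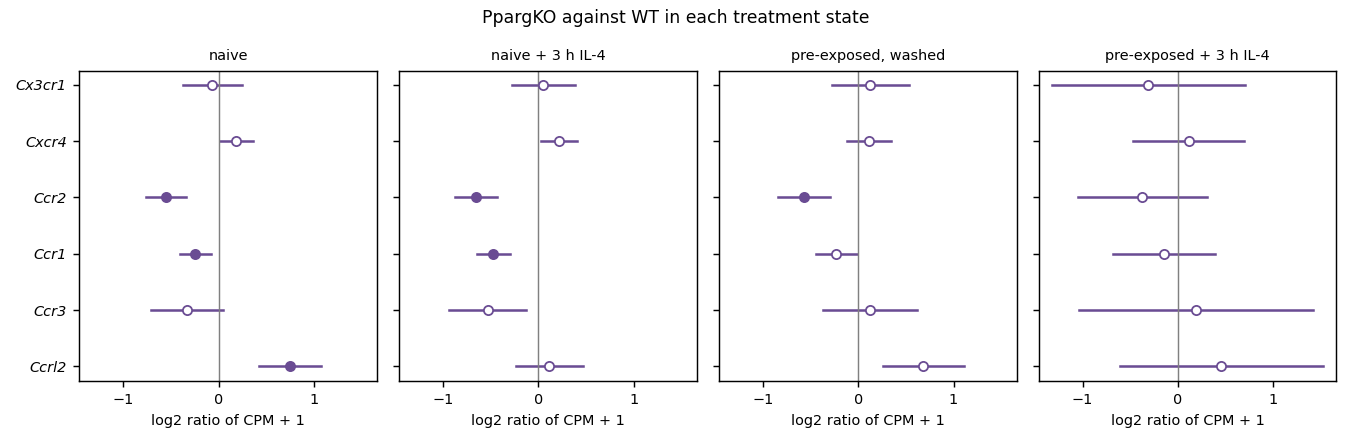
Fitted log2 ratios of CPM + 1, PpargKO against WT, with 95% intervals for each receptor in the 4 states on 1 shared x axis. Filled points have an adjusted p under 0.05. Ccr2 lies below 0 in every state and is called in all but the restimulated cells, whose intervals are widest.

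Ligands of Ccr2 rose at 3 h, while Ccl3, a ligand of Ccr1, fell. Of 16 listed ligands, 9 were tested at first WT exposure, and 4 rose (Ccl7, Ccl2, Ccl24 and Ccl12) and 1 fell (Ccl3), against 24.8% of all genes higher and 25.2% lower. Ccl2, the main ligand of Ccr2, went from authors' means of 23.5 to 234 CPM (log2 ratio 3.27, SE 0.10, adjusted p = 2.1e-12), and Ccl7 from 5.41 to 336 CPM (5.72, SE 0.11). Ccl12, another Ccr2 ligand, went from 0.856 to 11.6 CPM (2.76, SE 0.16). So Ccr2 RNA was low in the same libraries in which RNA of its ligands was high. The median log2 ratio of the tested ligands was 0.19.

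In PpargKO cells, 4 of the 9 tested ligands rose on first exposure (Ccl2, Ccl7, Ccl12 and Ccl24) and 4 fell (Ccl3, Ccl6, Ccl9 and Cx3cl1), with a median log2 ratio of -0.25, against 21.2% of all genes higher and 22.4% lower. Ccl2 reached 318 and 360 CPM (log2 ratio 3.35, SE 0.11) and Ccl7 449 and 497 CPM (5.53, SE 0.12). Ccl3 fell by 1.34 on the log2 scale (SE 0.13, adjusted p = 2.42e-07). On restimulation both were lower than on first exposure in PpargKO cells, at 153 and 137 CPM for Ccl2 (-1.22, SE 0.11, adjusted p = 2.2e-06) and 182 and 168 CPM for Ccl7 (-1.43, SE 0.12). At 24 h, Ccl7 was at 21.8 and 17.9 CPM against 5.20 and 3.59 in vehicle (1.96, adjusted p = 0.007), and Ccl12 had fallen. Ccl2 and Ccl7 were higher in naive, first-exposed and washed PpargKO than WT cells, where Ccr2 was lower; their naive ratios were 0.44 and 0.68.

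**Figure D5:**
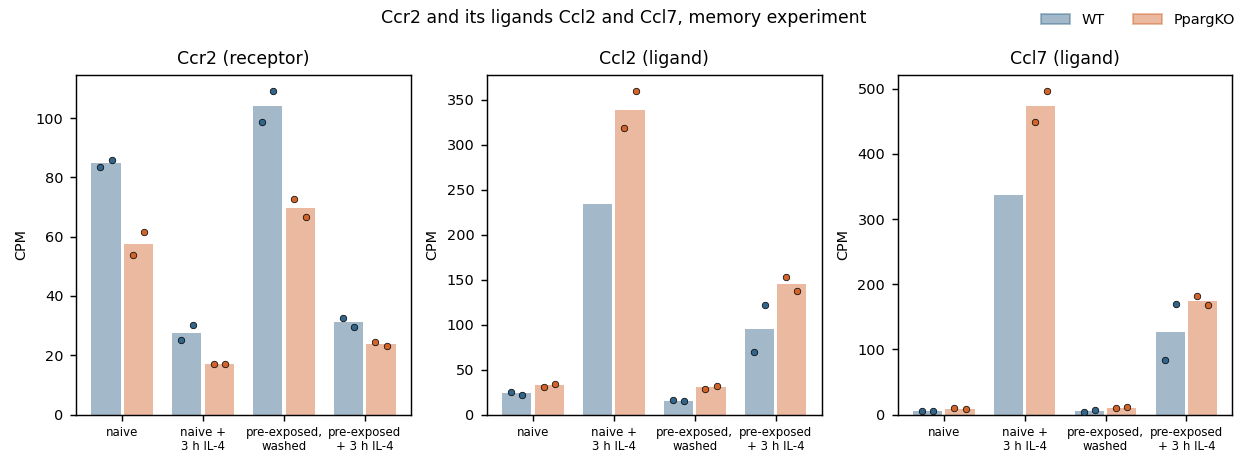
Ccr2 and its ligands Ccl2 and Ccl7 (CPM, linear axes from 0) in the 4 states, WT in blue and PpargKO in orange. Bars are the authors' group means and points the single libraries, which could not be separated for the ligands in first-exposed WT cells. The ligands are high in both groups with 3 h of IL-4, where Ccr2 is low.

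Ccl24, the eotaxin ligand of Ccr3, rose with IL-4 from 4.15 and 4.06 CPM in vehicle to 121 and 172 CPM after 24 h (log2 ratio 4.83, SE 0.27, adjusted p = 6.7e-05). In PpargKO cells it reached 14.2 and 12.8 CPM on first exposure and 52.4 and 60.5 CPM on restimulation (1.99 between them, SE 0.23, adjusted p = 1.2e-05). Ccl11, another eotaxin, was at most 0.0598 CPM as an authors' mean. The eosinophil markers Epx and Il5ra stayed under 0.5 CPM in every memory group, where Ccr3 had means of 7.63 to 27.5 CPM. Prg2, an eosinophil granule gene, had memory means of at most 1.35 CPM, with 2.32 CPM in the deeper first-exposed WT library. Siglec5, under which symbol the tables list the eosinophil marker Siglecf, had memory means of 1.13 to 5.50 CPM. It rose after washout, where Ccr3 fell, from 2.09 and 1.32 to 4.82 and 4.20 CPM in WT (log2 ratio 1.04, adjusted p = 0.0243) and from 1.46 and 0.816 to 4.67 and 6.34 CPM in PpargKO cells (1.61, adjusted p = 0.000209). In the antagonist experiment Prg2 read 10.3 and 10.2 CPM in vehicle and 4.92 and 5.31 CPM with IL-4, and the part of these markers' cells in Ccr3 was not tested.

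The Ccr1 ligands Ccl6 and Ccl9 were, like their receptor, higher in washed than in naive cells. Unlike Ccr1, they also had higher authors' means after 24 h of IL-4 in the antagonist experiment. Ccl6 was at 392 CPM in vehicle and 1205 CPM with IL-4, and Ccl9 at 781 and 2637 CPM. Ccl6 had means of 209 CPM in naive, 192 in first-exposed and 891 in washed WT cells (log2 ratio 2.09 for washed against naive, SE 0.08, adjusted p = 5e-10; -0.12 at first exposure). In washed PpargKO cells it was at 1307 and 1325 CPM, from 337 and 345 (1.94, SE 0.07). Ccl9 rose by less, from 932 and 892 to 1202 and 1312 CPM in WT cells (0.46, SE 0.08, adjusted p = 0.00125). Ccl3, by contrast, fell at first exposure (-1.62 in WT, SE 0.12). Among the 9 ligands tested for WT washout, 3 rose and 2 fell.

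For Cxcr4, Cx3cr1 and Ccrl2 the macrophages made little ligand RNA. Outside the restimulated WT group, Cxcl12 and Cx3cl1 had means of at most 0.746 and 2.23 CPM, and Rarres2 was listed at 0 in all groups but that one, at 0.0609 CPM. Cmklr1, the signalling chemerin receptor, followed Ccrl2 in washed cells. It rose from 30.6 and 39.9 to 69.4 and 68.5 CPM in WT (log2 ratio 0.96, SE 0.14, adjusted p = 0.00026) and from 57.0 and 58.3 to 81.4 and 87.5 CPM in PpargKO cells (0.54, SE 0.12, adjusted p = 0.0047). In naive cells it was higher in PpargKO than WT (0.71, SE 0.11, adjusted p = 0.00041), as Ccrl2 was.

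Cxcr3, a receptor for interferon-induced chemokines, was called in both experiments: up at first WT exposure (7.93 and 7.84 to 11.6 and 12.05 CPM; 0.53, adjusted p = 0.006) and down at 24 h (11.6 and 9.77 to 0.460 and 1.15 CPM; -2.72, adjusted p = 0.0012). The times come from different experiments, and their difference was not tested.

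Of 18 other chemoattractant receptors, 15 were tested at first WT exposure; 9 fell and 3 rose, where 25.2% of all genes fell and 24.8% rose. S1pr1, a lipid receptor for egress, fell from 180 and 182 to 42.0 and 29.98 CPM (log2 ratio -2.32), Ptafr, the platelet-activating factor receptor, from 100.4 and 97.8 to 19.3 and 16.7 (-2.40), and C5ar1, the complement receptor, by 0.98 on the log2 scale. Ltb4r1, the leukotriene B4 receptor, rose from 1.88 and 3.97 to 13.2 and 13.7 CPM (1.93). In the antagonist experiment, normalized separately, it stood at 6.21 and 6.89 CPM in vehicle and 49.95 and 76.75 CPM after 24 h of IL-4. At 24 h, 5 of 15 fell and 1 rose, where 8.35% of all genes fell and 9.74% rose. The list's median log2 ratio was -0.54 at 3 h and -0.56 at 24 h.

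Of 27 listed genes that carry or end the receptor signal, 25 were tested at first WT exposure; 12 fell and 4 rose, with a median log2 ratio of -0.22, where 25.2% of all genes fell and 24.8% rose. Gng2, a G protein gamma subunit, went from 235 and 233 to 93.2 and 102 CPM (-1.26), and Pik3r5, the PI3Kγ regulatory subunit, fell by 1.29. Rgs2, which speeds G protein shut-off, fell by 1.38, and the arrestins Arrb1 and Arrb2 by 0.73 and 0.75. The main Gi subunit of these cells, Gnai2, had means of 1386 CPM in naive and 1438 CPM in first-exposed WT cells and was not called. At 24 h, 6 of 24 fell and 2 rose, against the 8.35% and 9.74% of all genes given above.

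Across the 12 groups, each gene centred within its table on the log2 scale, the members fell into looser and tighter pairs. Cxcr4 was most like Ccr2 (Pearson r = 0.90) and Ccr1 (0.85), and Cx3cr1 most like Ccr2 (0.87). Ccr3 was unlike Ccr1 (-0.03) and Ccrl2 (-0.10). Among 3697 genes that varied, the closest to Cx3cr1 were Itga6 (0.993) and B4galt6 (0.989), and to Cxcr4 they were Trim16 (0.996), Eepd1 (0.993) and Rell1 (0.992). Those closest to Ccr1 were Slc29a3 (0.988), Aph1c and Tgfbi, and to Ccr2, 5031425F14Rik (0.983), Bco2 and Tgfbr1. Ccr3 had Fnbp1l (0.936), Klra2 and Rnf157, and Ccrl2 had Tnfsf13 (0.921), 2310001H17Rik and Cmklr1 (0.879). These values describe group means that share libraries and the IL-4 contrast, over 12 points.

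In order of level within the memory table, the neighbouring groups of Cx3cr1 rose from restimulated (4.75 in PpargKO and 6.21 CPM in WT, overlapping) through first-exposed (13.8 and 14.1, overlapping) and washed cells (39.0 and 42.8, apart) to naive cells (93.4 and 98.2, overlapping). Cxcr4 ran from first-exposed through restimulated and naive to washed cells. Ccr1 had the same first and last places, with the restimulated PpargKO and WT groups (100.4 and 111) just under the naive PpargKO group (113). Ccr3 alone had its 4 lowest groups in pre-exposed cells (7.63 to 11.5 CPM), and the neighbours from 8.86 to 11.9 CPM overlapped. For Ccrl2, the groups between 7.35 and 10.3 CPM overlapped with their neighbours, and washed PpargKO cells (17.1 CPM) stood apart at the top.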

How the data were processed

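Per the labels, poly-A libraries were prepared from Trizol-extracted RNA and read on a HiSeq. TopHat2 2.0.7, Cufflinks 2.0.2 and mm10 are named in the submitters' processing notes, without their roles. The authors deposited 1 averaged signal per gene and group, of read counts scaled to a common total (columns add to 951943 to 1054530 and 957489 to 1022960), with no spread. Each value was separated into whole reads of 2 libraries: 169559 of 171808 values (98.7%) had 1 solution, and the 2249 others entered as the authors' mean with weight 2.

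limma-trend 3.58.1 (R 4.3.3) was fitted to log2(CPM + 1), with 1 coefficient and 1 weight per group, after tests on simulated data. Genes of at least 1 CPM in a group compared were adjusted by Benjamini-Hochberg in each of 22 comparisons (16 pairs and 6 differences). Alternatives changed the pseudocount, filter, weights, scaling, test (limma-voom), counting kind and libraries. All members are named; of each list, called genes (at most 4 per direction, by size) and ligands or receptors of members; and the genes most like each member, up to 3. Some results under these rules are not reported here. The members and lists were chosen with earlier results of these data known.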

Additional observations from a re-analysis of the deposited data

Results flagged for a closer look

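The response of Cxcr4 to IL-4 in PpargKO cells differed between restimulation and first exposure, by a test of the difference itself. The fall was smaller on restimulation by 0.57 on the log2 scale (0.567, SE 0.13, limma adjusted p = 0.0384). Over the settings tried, the adjusted p ran from 0.0363 to 1: it was 0.0752 with no filter, 0.061 with median ratio scaling, 0.165 with counting kind as a term, and 1 without group weights and in limma-voom. Leaving out 1 library gave differences of 0.46 (without the shallower washed library, adjusted p = 0.249) to 0.67 (without the deeper washed library, adjusted p = 0.0363), and the call was lost in 7 of 8 cases. The direction was the same in every setting tried.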

How the results depend on the processing

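No paired analysis was possible because the deposited columns carry no replicate numbers and the separated libraries cannot be tied to them. Over 22 comparisons, 1653 member values under alternatives stayed on their side of the threshold, 56 lost and 18 gained a call, and none turned direction while called. Counts of members called moved by over 1.5 times in these cases. Restimulated against first-exposed WT cells gave 0, but 4 without group weights, 4 in limma-voom and 1 with counting kind as a term, and 0 to 1 without single libraries. Restimulated against washed WT cells gave 4, and 1 to 4 without single libraries. Washed against naive PpargKO cells gave 5, but 3 without weights and 3 in limma-voom. PpargKO against WT gave 3 in naive cells, but 1 in limma-voom and 0 with the kind term; 2 in first-exposed cells, but 0 under both; and 1 in washed cells, but 2 with log2(CPM + 4), 0 with no filter, 0 without weights, and 0 to 1 without single libraries. The restimulation minus first response difference in PpargKO cells gave 1, but 0 with no filter, no weights, limma-voom, median ratio scaling or the kind term, and 0 to 1 without single libraries. Smaller moves were 3 to 4 for IL-4 at 24 h (Ccrl2 called without weights, in limma-voom or with the kind term), and, without single libraries, 2 to 3 for it, 4 to 5 for first exposure and washout in both genotypes, and 2 to 3 for PpargKO against WT in first-exposed cells. Other shifts were by 1 member. The causes were not tested. Having 2 libraries a group limits the precision.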
